A study of Homo sapiens with 6 samples.

Results

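The 58 genes described here encode proteins that carry cells through mitosis: the mitotic cyclins and kinases, the kinetochore, the spindle checkpoint, spindle proteins, the cytokinesis machinery and the condensins. Each gene was represented by the brightest of the probe sets that carry its symbol alone in the platform annotation, and all 58 of the 58 genes listed passed the filter on dim probe sets, among 13720 genes tested. They had 119 probe sets in the table, of which 110 passed that filter.

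RNA was measured on 6 Affymetrix arrays from U251 cells, an established human glioma line. In 3 samples the cells overexpressed PARK2, which encodes the E3 ubiquitin ligase parkin, and in 3 control samples they overexpressed GFP. Both groups were stable lines made by viral infection and puromycin selection, so a viral insertion and drug selection were common to all 6 samples. Per the labels the arrays are biological replicates, with no word on separate cultures or infections. The p-values given here therefore reflect only how far these arrays spread, which could be technical spread. That spread was mostly pooled over genes of similar intensity and not taken from each gene alone. The promoter that drove each transgene, and whether a line was 1 clone or a pool, are not given in the sources used here.

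Entry into mitosis is driven by cyclin-dependent kinase 1 bound to its A-type and B-type cyclins. Kinetochores then assemble on the centromeres and hold the spindle microtubules, and the spindle checkpoint keeps the anaphase-promoting complex inactive until every chromosome is attached. Most of these genes are transcribed periodically, with a peak late in the cell cycle, and in proliferating glioma cells their RNA levels rise and fall with the share of cells in G2 and mitosis.

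Levels are linear intensities as deposited, and differences are given on the scale of log2(intensity + 16), PARK2 minus control. On this scale a difference of 1 is close to a doubling for bright genes, and the change of dim genes is understated. A gene is said to have risen or fallen where limma's p-value, adjusted by the Benjamini-Hochberg procedure over all 13720 genes, was under 0.05. Array medians ran from 16.2 to 19.3 intensity units. Arrays of the same group correlated with r of 0.989 to 0.992 and arrays of different groups with r of 0.959 to 0.961 over the genes tested. All 6 of the 6 glial and glioma line markers (GFAP, VIM, S100B, SOX9, NES and CD44) were above the filter, with a summed intensity of 18923 to 22094 on control and 19564 to 20723 on PARK2 arrays. VIM and CD44 made up most of that sum, while S100B went from 256 to 493 on control to 122 to 132 on PARK2 arrays and GFAP from 207 to 338 to 319 to 396. Of 2 leukocyte markers with a probe set of their own, 0 were above it (sums of 2.23 to 8.98 and 13.4 to 22.0), and of 3 endothelial markers 1 was (38.3 to 45.6 and 26.5 to 51.8). Of 3 epithelial markers only KRT18 was above it, and their sum was lower on PARK2 arrays (92.3 to 97.7 against 179.7 to 267). The neuronal markers SNAP25 and SYT1 were above the filter and RBFOX3 was not, and their sum went from 26.4 to 34.7 on control arrays to 189.8 to 256 on PARK2 arrays. The part of these marker changes in the results below was not tested.

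More of the mitotic genes rose in PARK2 cells than fell, by modest amounts, and the largest class did not pass the threshold. Of the 58 genes, 26 (44.8%) rose, beside 13.3% of all genes tested, and 5 (8.62%) fell, beside 15.6% of all genes tested. The remaining 27 did not pass the threshold. The median log2 difference was 0.28 over the 58 genes and -0.0026 over all genes tested. Of the 58 differences 46 were positive, beside 6813 of the 13720 over all genes tested. The differences ran from -0.63 for SGO1, a protector of centromeric cohesion, to 0.88 for NCAPG, a condensin I subunit. Of the 58 genes 10 rose by more than 1.5-fold, beside 1063 of all 13720 genes tested. A fall of more than 1.5-fold was found for 1 of the 58, beside 1291 of all genes tested. All 3 PARK2 arrays were above all 3 control arrays for 31 genes, beside 18.3% of all genes tested, and below them for 8 genes, beside 21.1%. These are bulk samples, so a larger share of cells in mitosis and more of each RNA per cell cannot be told apart.

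**Figure D1:**
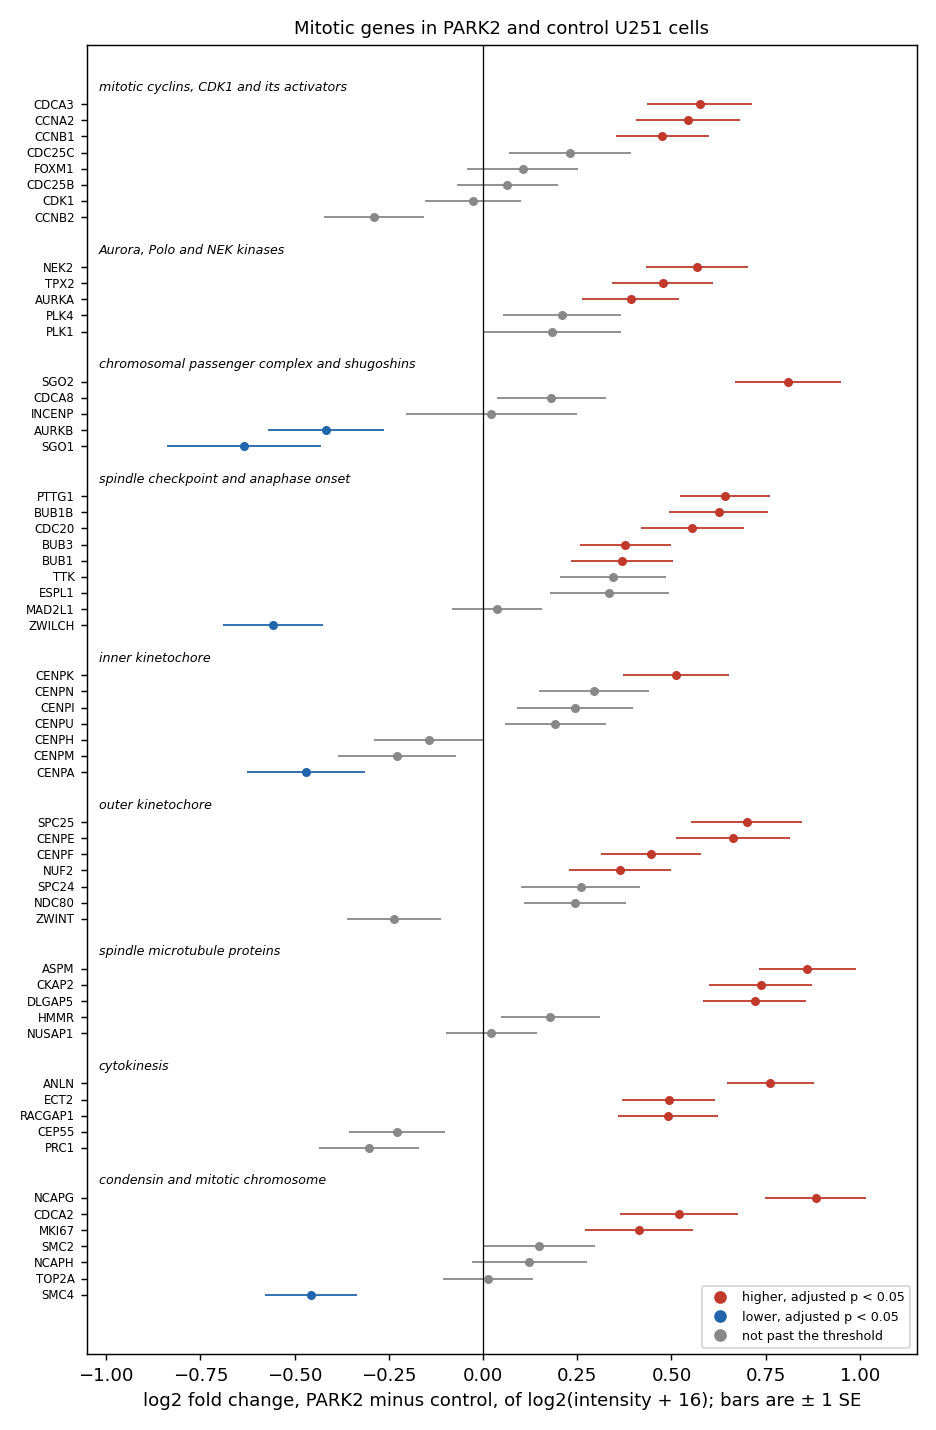
Log2 difference between PARK2 and control cells for each of the 58 mitotic genes on the x axis, grouped by role on the y axis, with bars of ± 1 standard error from limma. Red points are the 26 genes that rose, blue points the 5 that fell, and grey points the 27 that did not pass the threshold; the spindle microtubule proteins have the highest median (0.72) and the chromosomal passenger group the lowest (0.02).

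Most of these genes were bright. In all, 45 of the 58 genes were among the brightest 25% of the genes tested. Of these 45 genes 24 rose, beside 15.5% of the 3430 genes of that brightness, and 3 fell, beside 20.6%. Their median log2 difference was 0.37. Among the 13 dimmer genes 2 rose (CENPE and CDCA2) and 2 fell (CENPA and SGO1), 15.4% each, with a median of 0.21. These shares were near those of all genes tested, of which 13.3% rose and 15.6% fell. The cumulative plot of differences shows the curve of the mitotic genes to the right of that of all genes over most of its range, while the largest rises and falls on the arrays lay outside the mitotic genes.

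**Figure D2:**
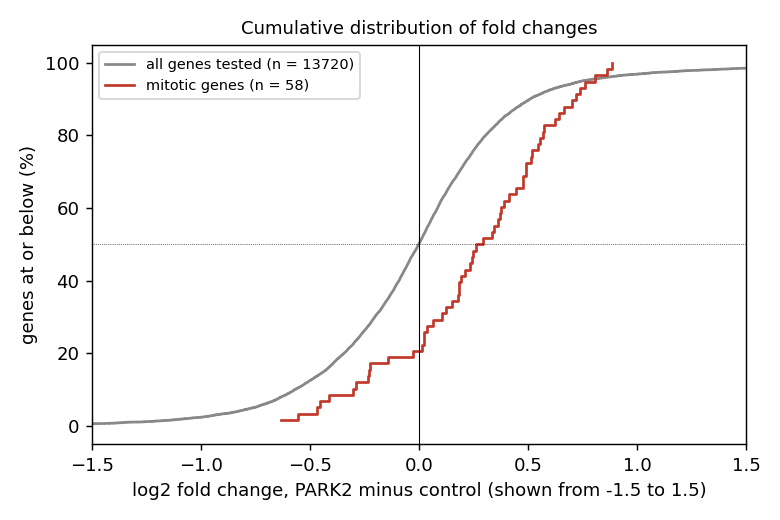
Cumulative percentage of genes (y axis) at or below each log2 difference between PARK2 and control cells (x axis, on which the most extreme genes are left off) for the 58 mitotic genes in red and all 13720 genes tested in grey. The dotted line at 50% crosses the red curve near its median of 0.28 and the grey curve near 0.

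Promoters of periodic mitotic genes are known for a pair of elements, the cell cycle genes homology region (CHR), which recruits the DREAM and MuvB complexes, and the CCAAT box, which binds NF-Y. RefSeq promoter windows (GRCh38.p14, from 250 bases before to 50 bases after a transcript start) were given for 49 of the 58 genes, with 65 windows in all. A CHR was searched as TTTGAA or TTCGAA, the CCAAT box as CCAAT, and an E2F-like element as TTTGGCGC, TTTCCCGC, TTTGGCGG or TTTCCCGG, each on both strands. A CHR match was present in 39 of the 65 windows, beside 16.4% of all 35116 windows and 12.5% of the 16115 windows of genes tested. CCAAT was present in 46 (70.8%), beside 34.6% and 34.8%, and both in 30 (46.2%), beside 6.38% and 4.99%. The E2F-like letters were in 4 windows (6.15%), beside 4.31% and 6.12%. The following stretches of 150 bases, ending just before the transcript start and written in the direction of transcription, are those of the genes with the largest rises that had a window (NCAPG, ASPM, SGO2, ANLN), of the fallen genes SMC4, AURKB and CENPA, and of the B-type cyclin pair, of which CCNB1 rose and CCNB2 did not. Capitals mark CHR matches (TTTGAA, or TTCAAA where the match is on the other strand) and CCAAT matches (CCAAT, or ATTGG on the other strand). NCAPG lies at chr4:17810829-17810978 (plus strand), ASPM at chr1:197146670-197146819 (minus strand), SGO2 at chr2:200525992-200526141 (plus strand) and ANLN at chr7:36389712-36389861 (plus strand). SMC4 lies at chr3:160399500-160399649 (plus strand), AURKB at chr17:8210250-8210399 (minus strand) and CENPA at chr2:26785906-26786055 (plus strand). CCNB1 lies at chr5:69167000-69167149 and CCNB2 at chr15:59104996-59105145, both on the plus strand.
NCAPG: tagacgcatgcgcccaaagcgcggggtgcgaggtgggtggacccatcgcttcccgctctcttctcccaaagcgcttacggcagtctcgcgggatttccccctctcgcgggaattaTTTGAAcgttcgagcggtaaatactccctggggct
ASPM: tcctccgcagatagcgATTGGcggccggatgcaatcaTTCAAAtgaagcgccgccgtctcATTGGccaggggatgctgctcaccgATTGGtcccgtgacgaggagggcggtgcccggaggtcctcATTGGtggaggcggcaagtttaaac
SGO2: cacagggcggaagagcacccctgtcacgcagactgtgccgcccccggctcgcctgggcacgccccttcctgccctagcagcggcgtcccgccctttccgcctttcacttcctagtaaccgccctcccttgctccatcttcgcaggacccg
ANLN: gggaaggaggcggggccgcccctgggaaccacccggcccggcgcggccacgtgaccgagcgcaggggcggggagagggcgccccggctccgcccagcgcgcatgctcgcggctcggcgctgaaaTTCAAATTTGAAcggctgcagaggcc
SMC4: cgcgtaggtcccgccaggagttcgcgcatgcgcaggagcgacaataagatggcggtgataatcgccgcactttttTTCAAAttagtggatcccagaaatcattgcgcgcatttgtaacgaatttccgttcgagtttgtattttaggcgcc
AURKB: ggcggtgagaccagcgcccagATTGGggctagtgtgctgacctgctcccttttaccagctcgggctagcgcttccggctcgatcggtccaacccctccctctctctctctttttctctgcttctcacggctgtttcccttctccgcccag
CENPA: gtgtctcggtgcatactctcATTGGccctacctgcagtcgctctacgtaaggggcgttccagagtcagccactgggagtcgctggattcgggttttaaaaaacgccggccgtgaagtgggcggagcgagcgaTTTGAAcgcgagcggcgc
CCNB1: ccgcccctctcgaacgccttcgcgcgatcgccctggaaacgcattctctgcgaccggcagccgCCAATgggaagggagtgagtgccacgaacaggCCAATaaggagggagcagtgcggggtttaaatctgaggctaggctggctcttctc
CCNB2: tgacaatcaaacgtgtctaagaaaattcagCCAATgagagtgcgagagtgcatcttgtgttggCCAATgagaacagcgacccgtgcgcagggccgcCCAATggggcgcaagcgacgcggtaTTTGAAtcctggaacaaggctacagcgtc

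Matches occurred in genes that rose, fell or did not pass. Of the 4 genes printed with large rises, NCAPG had 1 CHR match, ANLN had 2, ASPM had 1 with 4 CCAAT matches, and SGO2 had 0 of either in the 150 bases. Of the 3 printed that fell, SMC4 had 1 CHR match, CENPA had 1 of each and AURKB had 1 CCAAT match. CCNB2, which did not pass the threshold, had 1 CHR match and 3 CCAAT matches, and CCNB1, which rose, had 2 CCAAT matches and 0 CHR matches in the letters searched. Counted by gene over all windows, a CHR match was found for 13 of the 21 genes that rose and had a window. It was found for 3 of the 5 that fell and for 19 of the 23 that did not pass. CCAAT was found for 15 of 21, 4 of 5 and 20 of 23. Of the 11092 genes tested that had a window, 16.2% had a CHR match and 43.1% a CCAAT match. In the most upstream window of each gene, 44 CHR matches in 33 genes had a median position of -22.5 relative to the transcript start, and 75 CCAAT matches in 36 genes a median position of -73. In 2 genes a CHR and a CCAAT match shared bases, and in 0 an E2F-like match shared bases with either. A match of letters is a description and not a binding site.

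**Figure D3:**
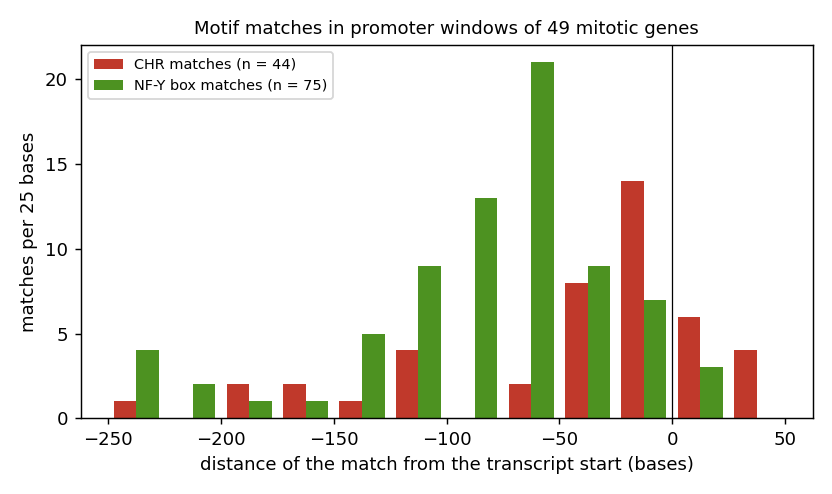
Number of CHR matches (red, 44) and of matches to the CCAAT box bound by NF-Y (green, 75) per 25 bases on the y axis, against distance from the transcript start in bases on the x axis, in the most upstream RefSeq promoter window of the 49 mitotic genes. CCAAT matches lie mostly upstream of the CHR matches, with medians of -73 and -22.5.

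The counts in each role group are to be read against all genes tested, of which 13.3% rose and 15.6% fell. Among the mitotic cyclins, CDK1 and its activators, 3 of 8 genes rose and 0 fell, with a median log2 difference of 0.17. CDCA3, an adaptor that helps degrade the CDK1 inhibitor WEE1, read 982, 864 and 794 on the control arrays and 1238, 1433 and 1277 on the PARK2 arrays. CCNA2, cyclin A2, read 1025, 1021 and 896 on control and 1264, 1547 and 1508 on PARK2 arrays. CCNB1, cyclin B1, read 2999, 2513 and 2244 on control and 3668, 3603 and 3464 on PARK2 arrays. For each of these genes every PARK2 array was above every control array. The log2 differences were 0.58 ± 0.14 (SE, n = 3 arrays per group, limma adjusted p = 0.000836) for CDCA3, 0.54 ± 0.14 (adjusted p = 0.00145) for CCNA2 and 0.48 ± 0.12 (adjusted p = 0.00192) for CCNB1.

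CDK1, the kinase these cyclins activate, did not pass. It read 2834, 3333 and 2998 on control and 2481, 3717 and 2905 on PARK2 arrays, and its log2 difference was -0.03 ± 0.13 (limma adjusted p = 0.912). The other B-type cyclin, CCNB2, read 2758, 2071 and 1981 on control and 1835, 1881 and 1790.3 on PARK2 arrays. All 3 PARK2 values of CCNB2 were below the control values, but its log2 difference of -0.29 ± 0.13 did not pass the threshold (adjusted p = 0.0948). The log2 ratio of CCNB1 to CCNB2 was higher in PARK2 cells by 0.76, with SDs of 0.08 and 0.03 between the control and PARK2 arrays. This pair was chosen after its values were seen, so the ratio is given without a test. The phosphatases CDC25B (0.06) and CDC25C (0.23), which activate CDK1, and the transcription factor FOXM1 (0.10), which drives late cell cycle genes, did not pass.

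Of the 5 genes of the Aurora, Polo and NEK kinase group, 3 rose and 0 fell, with a median of 0.39. NEK2, a centrosomal kinase that promotes centrosome separation, read 1138, 938 and 1039 on control and 1494, 1513 and 1621 on PARK2 arrays. TPX2, the spindle protein that activates Aurora A, read 1338, 1134 and 1085 on control and 1636, 1583 and 1730.5 on PARK2 arrays. AURKA, Aurora A itself, read 2038, 1672 and 1802 on control and 2430.1, 2495 and 2300.3 on PARK2 arrays. None of these 3 genes overlapped between groups. The log2 differences were 0.57 ± 0.14 for NEK2 (limma adjusted p = 0.000727), 0.48 ± 0.13 for TPX2 (adjusted p = 0.00448) and 0.39 ± 0.13 for AURKA (adjusted p = 0.0149). The call of AURKA was lost without control replicate 2, without PARK2 replicate 1 and without PARK2 replicate 2, and that of TPX2 without PARK2 replicate 3. The Polo kinases PLK1 (0.18), which acts throughout mitosis, and PLK4 (0.21), which controls centriole duplication, did not pass. PLK1 was dim, with means of 69.1 on control and 81.0 on PARK2 arrays.

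The chromosomal passenger complex, which corrects wrong attachments, and the shugoshins, which protect centromeric cohesion, moved in opposite directions within the group: 1 of 5 rose and 2 fell, with a median of 0.02. SGO2 read 716, 662 and 643 on control and 1109, 1175 and 1294 on PARK2 arrays, with no overlap. SGO1 was dim, at 139, 67.8 and 96.7 on control and 41.8, 45.2 and 94.7 on PARK2 arrays. PARK2 replicate 3 lay between the control values of SGO1, so the groups overlapped although the gene passed the test. AURKB, the kinase of the passenger complex, read 824, 594 and 536 on control and 479.8, 461 and 488 on PARK2 arrays. Its groups did not overlap, and control replicate 1 stood above the other control arrays. The log2 difference was 0.81 ± 0.14 for SGO2 (limma adjusted p = 4.5e-06), -0.63 ± 0.20 for SGO1 (adjusted p = 0.0138) and -0.42 ± 0.15 for AURKB (adjusted p = 0.0336).

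Both falls in that group rested on few arrays. AURKB was no longer past the threshold without control replicate 1, control replicate 2 or any 1 of the PARK2 arrays, and SGO1 without control replicate 1, PARK2 replicate 1 or PARK2 replicate 2. With the replicate number as a block, AURKB was at a limma adjusted p of 0.0755. When every probe set kept was fitted, the brightest probe sets of SGO1 (adjusted p = 0.0853) and AURKB (adjusted p = 0.0788) did not pass, and a second, dimmer probe set of SGO1 fell (-0.56). The scaffold INCENP (0.02) and the targeting subunit CDCA8 (0.18), also called borealin, did not pass. The log2 ratio of AURKA to AURKB was higher in PARK2 cells by 0.81, with SDs of 0.22 and 0.10 between arrays, and the log2 ratio of SGO2 to SGO1 by 1.44, with SDs of 0.39 and 0.41. These pairs too were chosen after their values were seen.

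The spindle checkpoint and the genes of anaphase onset had 5 of 9 genes higher and 1 lower, with a median of 0.37. PTTG1, securin, the inhibitor of separase, read 4197, 3383 and 3188 on control and 5924, 5577 and 5232 on PARK2 arrays. BUB1B, the checkpoint protein BubR1, read 1968, 1561 and 1424 on control and 2531, 2592 and 2474 on PARK2 arrays. ZWILCH, a subunit of the RZZ complex that brings checkpoint proteins to the kinetochore, read 1927, 1803 and 1618 on control and 1159.8, 1194 and 1259 on PARK2 arrays. All 3 genes separated the groups completely, with ZWILCH in the opposite direction. The log2 difference was 0.64 ± 0.12 for PTTG1 (limma adjusted p = 1.37e-05), 0.63 ± 0.13 for BUB1B (adjusted p = 0.000118) and -0.56 ± 0.13 for ZWILCH (adjusted p = 0.000725).

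The other checkpoint genes that rose were CDC20 (0.55), the activator of the anaphase-promoting complex that the checkpoint holds back, BUB3 (0.38), the partner of BUB1 and BUB1B, and BUB1 (0.37), the kinase that marks centromeric chromatin. BUB1 lost its call when any array other than control replicate 1 was left out, and BUB3 without control replicate 2 or any 1 of the PARK2 arrays. BUB1 was also not past with the replicate number as a block (limma adjusted p = 0.0569). Its brightest probe set did not pass when every probe set kept was fitted (adjusted p = 0.0524). The checkpoint kinase TTK, also called MPS1, missed the threshold (0.35, limma adjusted p = 0.0578) although its groups did not overlap. Separase, ESPL1, was at 0.33 (adjusted p = 0.107), and the checkpoint effector MAD2L1 was at 0.04 (adjusted p = 0.869).

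The inner kinetochore is the centromere-bound layer that holds the centromeric histone CENPA and its associated network. It had 1 of 7 genes higher and 1 lower, with a median of 0.19. These shares, 14.3% each, were near those of all genes tested, 13.3% and 15.6%. CENPK, a subunit of that network, read 1119, 985 and 819.6 on control and 1347, 1306 and 1510.3 on PARK2 arrays. CENPA read 447, 363 and 393 on control and 270.5, 300.02 and 283 on PARK2 arrays. Neither gene overlapped between groups. CENPK was higher by 0.51 ± 0.14 (limma adjusted p = 0.00325), and CENPA differed by -0.47 ± 0.16 (adjusted p = 0.0165). The call of CENPA was lost when any 1 of the PARK2 arrays was left out and with the replicate number as a block (limma adjusted p = 0.0520), and that of CENPK without PARK2 replicate 3. Of the other network subunits, CENPN (0.29), CENPI (0.24), CENPU (0.19), CENPH (-0.14) and CENPM (-0.23) did not pass. CENPH, which binds next to CENPK in the same subcomplex, was below all control arrays on all PARK2 arrays, and the log2 ratio of CENPK to CENPH was higher in PARK2 cells by 0.66, with SDs of 0.20 and 0.15, a pair chosen after its values were seen.

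In the outer kinetochore, the layer that grips microtubules, 4 of 7 genes rose and 0 fell, with a median of 0.36. SPC25, a subunit of the NDC80 complex, read 1061, 781 and 628 on control and 1333, 1221 and 1401 on PARK2 arrays. CENPE, the kinesin that carries chromosomes to the spindle equator, read 416, 362 and 415 on control and 550.4, 692 and 681 on PARK2 arrays. CENPF, a large coiled-coil protein of the kinetochore corona, read 1915, 1404 and 1434 on control and 2038, 2313 and 2082 on PARK2 arrays. The groups of these genes did not overlap, though control replicate 1 came close to the PARK2 arrays for CENPF. The log2 difference was 0.70 ± 0.15 for SPC25 (limma adjusted p = 0.000137), 0.66 ± 0.15 for CENPE (adjusted p = 0.000399) and 0.45 ± 0.13 for CENPF (adjusted p = 0.00768).

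The 4 subunits of the NDC80 complex all had positive differences, of which SPC25 and NUF2 (0.36, limma adjusted p = 0.0361) passed, and SPC24 (0.26) and NDC80 (0.24) did not. The groups of all 4 were separate. NUF2 lost its call when any array other than control replicate 1 was left out and with the replicate block (limma adjusted p = 0.0718). When every probe set kept was fitted, that of NUF2 did not pass (adjusted p = 0.0511). CENPF lost its call without control replicate 2 or PARK2 replicate 2. ZWINT, the linker that recruits the RZZ complex containing ZWILCH, had a difference of -0.24 (adjusted p = 0.161). Set beside each other, the log2 ratio of CENPE to CENPA was higher in PARK2 cells by 1.13, with SDs of 0.09 and 0.12, for a pair chosen after its values were seen.

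**Figure D4:**
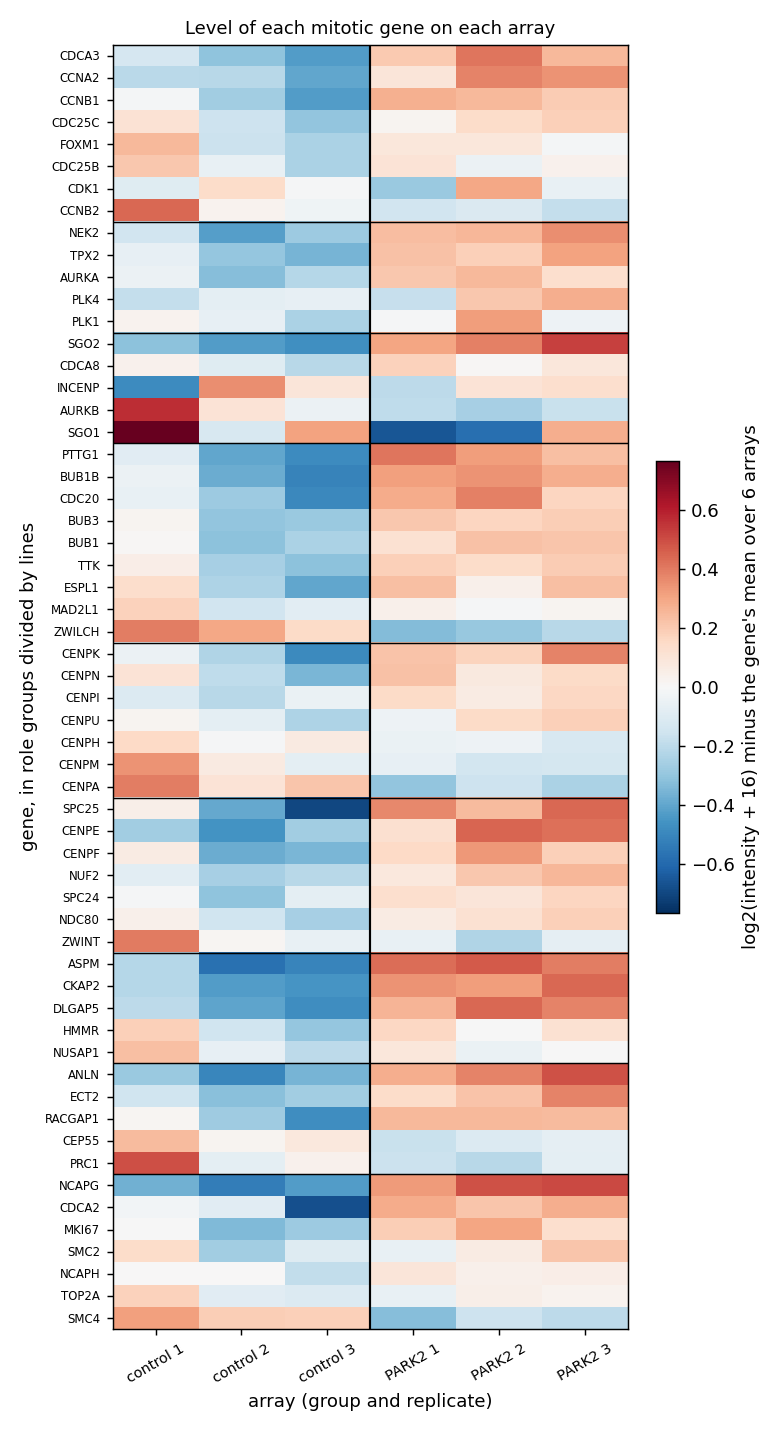
Level of each of the 58 mitotic genes (y axis, in role groups divided by lines) on each of the 6 arrays (x axis), as log2(intensity + 16) minus the gene's mean over the 6 arrays, from blue (below the mean) to red (above it). Control replicate 1 is the highest control array for 54 of the 58 genes, and AURKB, CENPA, SMC4 and ZWILCH are below their mean on all 3 PARK2 arrays.

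Spindle microtubule proteins had the highest median of the role groups, 0.72, with 3 of 5 genes higher and 0 lower. ASPM, a spindle pole protein, read 1912, 1496 and 1567 on control and 3003, 3093 and 2924 on PARK2 arrays. CKAP2, which promotes microtubule growth in the spindle, read 1056, 909.8 and 894 on control and 1567, 1544 and 1677 on PARK2 arrays. DLGAP5, also called HURP, which stabilises the fibres that reach kinetochores, read 989, 857 and 814 on control and 1369, 1549.8 and 1485 on PARK2 arrays. In each case the lowest PARK2 array stood well above the highest control array. The log2 difference was 0.86 ± 0.13 for ASPM (limma adjusted p = 1.29e-07), 0.74 ± 0.14 for CKAP2 (adjusted p = 1.36e-05) and 0.72 ± 0.14 for DLGAP5 (adjusted p = 2.61e-05). The call of ASPM rests on its brightest probe set, whose name ends in _s_at: without such probe sets and those ending in _x_at, its difference was 0.47 (adjusted p = 0.276). The microtubule-bundling NUSAP1 (0.02) and the hyaluronan receptor HMMR (0.18), which also binds spindle microtubules, did not pass on their brightest probe sets.

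Of the 5 cytokinesis genes 3 rose and 0 fell, with a median of 0.49. ANLN, anillin, the scaffold of the contractile ring, read 3659.9, 3148 and 3475 on control and 5413, 5804 and 6256 on PARK2 arrays. ECT2, the exchange factor that activates RhoA at the cell equator, read 2645, 2349 and 2447 on control and 3243, 3428 and 3825 on PARK2 arrays. RACGAP1, the centralspindlin subunit that recruits ECT2, read 1997, 1627 and 1411 on control and 2346, 2344 and 2333 on PARK2 arrays. No group overlapped, and the 3 PARK2 arrays of RACGAP1 were nearly equal, with an SD of 6.88 around a mean of 2341. The log2 difference was 0.76 ± 0.12 for ANLN (limma adjusted p = 2.31e-07), 0.49 ± 0.12 for ECT2 (adjusted p = 0.00115) and 0.49 ± 0.13 for RACGAP1 (adjusted p = 0.00269). The midzone bundler PRC1 (-0.30, adjusted p = 0.0799) and the abscission protein CEP55 (-0.23, adjusted p = 0.189) did not pass, although all their PARK2 values lay below all their control values.

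Condensin and the other mitotic chromosome proteins had 3 of 7 genes higher and 1 lower, with a median of 0.15. NCAPG read 1034, 925 and 993 on control and 1685, 1888 and 1912 on PARK2 arrays. CDCA2, which brings protein phosphatase PP1 to chromatin at mitotic exit, read 489, 466 and 304 on control and 608, 577 and 604 on PARK2 arrays. SMC4, an ATPase core subunit of both condensins, read 3743, 3422 and 3418 on control and 2399, 2687 and 2616 on PARK2 arrays. All 3 genes were separate between groups, and control replicate 3 was far below the other control arrays for CDCA2. The log2 difference was 0.88 ± 0.13 for NCAPG (limma adjusted p = 2.31e-07), 0.52 ± 0.16 for CDCA2 (adjusted p = 0.00826) and -0.46 ± 0.12 for SMC4 (adjusted p = 0.00239). CDCA2 was no longer past the threshold without control replicate 3.

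Condensin subunits thus changed in both directions. The other ATPase subunit, SMC2, was at 0.15 (limma adjusted p = 0.516) and the kleisin subunit NCAPH at 0.12 (adjusted p = 0.617). The log2 ratio of NCAPG to SMC4 was higher in PARK2 cells by 1.34, with SDs of 0.05 and 0.03 between arrays, for a pair chosen after its values were seen. MKI67, which coats mitotic chromosomes and is the gene of the Ki-67 proliferation marker, rose by 0.41 (adjusted p = 0.0226), but not without control replicate 2, without any 1 of the PARK2 arrays or with the replicate block (adjusted p = 0.0556). TOP2A, topoisomerase II alpha, read 4146, 3455 and 3413 on control and 3530.0, 3796 and 3744 on PARK2 arrays, and its log2 difference was 0.01 ± 0.12 (adjusted p = 0.958).

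Several probe sets for the same gene gave a further measurement on the same arrays. Of the 58 genes 25 had 1 probe set above the filter and 33 had at least 2. In 26 of these 33 all probe sets had differences of the same sign, and 0 genes had a probe set that rose and another that fell. Fitted together with every probe set kept, 36 of the 110 probe sets of mitotic genes rose (32.7%), beside 9.10% of all probe sets kept, and 6 fell (5.45%), beside 11.3%. Among the 52 probe sets that were not the brightest of their gene, 12 rose and 3 fell.

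Second probe sets repeated the changes of NCAPG (0.91), ANLN (0.88), ZWILCH (-0.91) and SMC4 (-0.73). CENPU, a linker of the inner kinetochore whose brightest probe set did not pass, had dimmer probe sets that rose by 0.68 and 0.72, and the second probe set of HMMR rose by 0.40. The dimmer probe sets of ASPM (0.47 and 0.62; limma adjusted p = 0.493 and 0.0912) had the sign of the brightest but did not pass. The second probe sets of CCNB1 (0.21), CKAP2 (0.02) and CDCA2 (-0.01) did not pass either. That of CKAP2 was dim, with a control mean of 26.3 beside 953 for its brightest. Nor did that of AURKA, of similar brightness to the first (0.28, limma adjusted p = 0.139), or that of CENPF (0.07, adjusted p = 0.849). AURKA, BUB1, BUB3, CCNB1, CDCA2, CENPF and CKAP2 were no longer past the threshold when the probe sets of a gene were averaged. That average gave dim probe sets equal weight, with control means of 34.7 (AURKA), 37.5 and 11.2 (BUB1), 27.3 and 16.8 (BUB3), 36.7 (CENPF) and 26.3 (CKAP2). Bright further probe sets of BUB3 rose by 0.469 and 0.468 (limma adjusted p = 0.0056 and 0.0069). Another bright one, at 0.29, did not pass (adjusted p = 0.293).

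On the values as deposited, control replicate 1 stood above the other control arrays, both for the mitotic genes and over all genes tested. The median deviation of the 58 genes from their mean over the 6 arrays was 0.02 on control replicate 1 and -0.21 and -0.25 on the other control arrays, against 0.13, 0.16 and 0.18 on the PARK2 arrays. Over all genes tested the same array also stood highest, at 0.17, with the other arrays between -0.12 and 0.05. Without control replicate 1 the count of mitotic genes that rose was 32 and that of those that fell was 3, while over all genes tested 2799 rose and 1837 fell. Without control replicate 3 the counts were 23 and 8 among the mitotic genes and 1470 and 2629 over all genes tested, beside 1818 and 2139 with all arrays.

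Genes close to each other on a chromosome tended to share a direction on these arrays. For each gene, the median log2 difference of the 10 tested genes on each side was taken in RefSeq order. Pearson's r between this neighbour median and the gene's own difference was 0.594 over the 58 mitotic genes and 0.395 over all genes tested, given as a description across genes, which share the arrays and are not independent replicates. Of the 5 genes that fell, 4 had a negative neighbour median: ZWILCH at -0.49, AURKB at -0.37, CENPA at -0.29 and SGO1 at -0.13. SMC4 was at 0.01. On chromosome 15 the neighbour median was -0.71 around PRC1, -0.49 around ZWILCH and -0.32 around CCNB2, while BUB1B, on the same chromosome, rose with a neighbour median of -0.11. The genes on chromosome 10 with low or negative differences, CDK1, ZWINT and CEP55, had neighbour medians of -0.41, -0.32 and -0.29. Other genes lay away from their neighbours. CENPH (-0.14) had a neighbour median of 0.35, MAD2L1 (0.04) of 0.34 and INCENP (0.02) of -0.48. Some further genes that rose had a negative neighbour median, among them CDCA3 (-0.08), PTTG1 (-0.05) and CDC20 (-0.04).

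**Figure D5:**
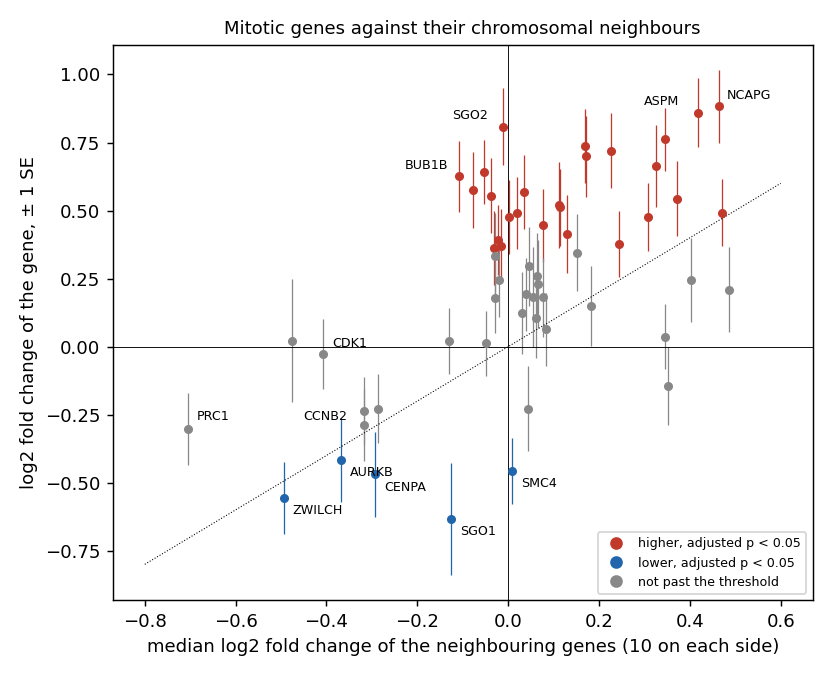
Log2 difference of each of the 58 mitotic genes with ± 1 standard error (y axis) against the median log2 difference of its 10 neighbouring tested genes on each side along the chromosome (x axis). Red, blue and grey mark genes that rose, fell or did not pass, and the dotted line marks equality; r is 0.594, and ZWILCH, AURKB and CENPA lie close to the line while SMC4, SGO1, SGO2 and BUB1B lie off it.

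With the neighbour median subtracted from the PARK2 values, 21 of the 58 genes rose (36.2%) and 2 fell, and the median log2 difference was 0.20. Over all 13720 genes tested 1455 then rose (10.6%) and 1348 fell, beside 1818 and 2139 before. Of the 26 genes that rose without this step, 19 still did. The rises of SGO2 (0.82), BUB1B (0.73), PTTG1 (0.70) and CDCA3 (0.65) were slightly larger than before. ASPM was then at 0.44, NCAPG and ANLN at 0.42 each, and ECT2 at 0.02 (limma adjusted p = 0.935). The fall of SMC4 was unaltered in size (-0.47, adjusted p = 0.00292), whereas AURKB (-0.05), ZWILCH (-0.06), CENPA (-0.18) and SGO1 (-0.51, adjusted p = 0.0706) no longer passed. After the subtraction CENPH passed as lower (-0.50, limma adjusted p = 0.00852), and CDK1 (0.38) and PRC1 (0.40) as higher. Without it these genes were at -0.14, -0.03 and -0.30 and did not pass. Their neighbour medians were 0.35, -0.41 and -0.71. The neighbour median was subtracted as a fixed value, so the p-values after this step leave out its error. Chromosome copy number was not measured here, and its part in these differences was not tested.

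Other genes of mitosis were counted from textbook lists. Their shares are to be read against all genes tested, of which 13.3% rose and 15.6% fell. Of 12 mitotic kinesins, the motors of spindle and midzone, 4 rose (33.3%) and 1 fell (8.33%), with a median of 0.29. The largest changes were those of KIF20A (0.96), which acts in cytokinesis, KIF18A (0.69), which limits chromosome oscillation, KIF22 (0.60), a chromokinesin, and KIF23 (-0.41), the motor subunit of centralspindlin. Of 22 further kinetochore and centromere genes tested, 3 rose and 3 fell (13.6% each), shares near those of all genes, with a median of 0.06. HJURP, the chaperone that deposits CENPA, rose by 0.82, and KNL1, the checkpoint platform of the outer kinetochore, by 0.59, while SKA1 (-0.69) and ZW10 (-0.50), another RZZ subunit, fell.

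Among 17 tested subunits and partners of the anaphase-promoting complex, 4 rose (23.5%) and 1 fell (5.88%), with a median of 0.23: ANAPC4 (0.80), and the ubiquitin-conjugating enzymes UBE2S (0.70) and UBE2C (0.47) were among those that rose, and ANAPC11 (-0.48) fell. Cohesin and the remaining condensin subunits had 1 of 17 genes higher (5.88%) and 3 lower (17.6%), the latter share near that of all genes, with a median of -0.13. The fallen genes were the cohesin subunits SMC1A (-0.58) and RAD21 (-0.38) and the release factor WAPL (-0.56), and PDS5A (0.49) rose. Of 16 regulators of mitotic entry and exit, 2 rose (12.5%) and 3 fell (18.75%), again near the shares of all genes, with a median of 0.27. TACC3, a spindle microtubule protein, rose by 0.86, and ARPP19 (-0.72), an inhibitor of the phosphatase PP2A, HASPIN (-0.54), a histone kinase, and CDC25A (-0.53) fell.

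Regulators of cell cycle transcription and genes of its earlier phases were counted in the same way. In the list of DREAM, E2F and NF-Y factors 3 of 22 genes rose (13.6%) and 2 fell (9.09%), with a median of 0.06, and the share that rose was near that of all genes. The largest changes were those of LIN52 (0.75), E2F7 (0.70), E2F6 (-0.43) and E2F8 (0.39). Of 27 tested genes of DNA replication and the G1/S transition, 1 rose (RFC4, 0.47), which is 3.70% of them, and 5 fell (18.5%), the latter share near that of all genes, with a median of -0.13. Those that fell included the polymerase alpha subunit POLA1 (-0.86), the helicase subunit MCM4 (-0.78) and thymidine kinase TK1 (-0.49). Of 5 tested inhibitors of cyclin-dependent kinases 3 rose and 0 fell: CDKN1A, p21, went from an intensity of 111 ± 19.6 to 491 ± 13.8 (SD, n = 3 arrays each; 2.01 ± 0.16 SE on the log2 scale), and CDKN2D rose by 0.76 and CDKN1B by 0.71. The difference between these lists and the mitotic genes was not tested.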

How the data were processed

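Intensities of 54675 probe sets on 6 arrays (3 PARK2, 3 control) were used as deposited. The submitters' processing notes name GCOS and MAS5, with no version, role or scaling target, so the scaling between arrays stays unknown. Names came from GEO's platform annotation: 41091 probe sets had 1 symbol, 1801 several and 11721 none. The 62 control probe sets and those without a single symbol were left out.

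Intensities were turned into log2(value + 16), with 16 as the pseudocount and no further normalization. Probe sets whose mean was below the 40th percentile were dropped (lowest mean intensity kept 9.96), and the probe set with the highest mean log2 value represented each gene. PARK2 was compared with control by limma 3.58.1 (R 4.3.3) with an intensity trend and Benjamini-Hochberg adjustment at 0.05 over 13720 genes. The variance model had 60.8 prior against 4 residual degrees of freedom, so adjusted p-values lean on the model. On simulated arrays of 13720 genes for PARK2 against control, 69 genes were changed 1.5-fold, 53 were changed 2-fold and 78 were changed 4-fold. Of these, 30.4%, 92.5% and 100% were recovered, and 5 unchanged genes passed. Far more genes passed in the data (1818 higher and 2139 lower), which makes the adjusted threshold less strict there. The simulated shares therefore do not give the share of changes missed in the data. The number of arrays limits the precision.

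The 58 genes, their roles and the lists were chosen with earlier results of these data known. Values on every array are given for the 3 largest changes past the threshold in each role and for every gene that fell, and up to 4 of the largest changes past the threshold are named per list; CDK1, CCNB2, TOP2A and the ratios of pairs were added after their values were seen. A gene's neighbours were taken from the order in the RefSeq table (GRCh38.p14), in which 19 of the genes tested were not found. Promoter windows are those of RefSeq. Alternatives covered the filter, pseudocount, normalization, variance model, array weights, probe set choice, threshold, neighbour correction, the replicate block and each array left out in turn. Transgene levels are not reported here. Detection calls were not used here.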

Additional observations from a re-analysis of the deposited data

How the results depend on the processing

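The median log2 difference of the mitotic genes stayed positive in every alternative run, between 0.20 and 0.38, against 0.28. The count of genes that rose, 26, was 40 with array weights (a fit that gave a convergence warning and in which 31.5% of all genes tested rose, against 13.3%) and 16 of 44 tested without the _x_at and _s_at probe sets, and between 20 and 32 with 1 array left out. The count of genes that fell, 5, was less stable: it was 3 with no filter on dim probe sets, 3 without an intensity trend, 2 with the neighbour correction, 2 at an adjusted p of 0.01, and between 2 and 8 with 1 array left out. With the replicate block it was 3, and the count of genes that rose was 23; the calls of AURKB, CENPA, BUB1, NUF2 and MKI67 were lost. Whether same-numbered arrays are paired was not settled, and the labels do not say. Over the genes tested their deviations correlated at 0.168, 0.045 and 0.065, and those of differently numbered arrays at -0.12 to 0.069. Over all probe sets kept the values were 0.401, 0.179 and 0.130, beside -0.28 to 0.162. Over the 58 genes they were 0.453, 0.398 and 0.274, beside -0.54 to 0.268. The counts were 32 and 6 after quantile normalization and 33 and 7 after scaling to a trimmed mean, with 19.3% and 19.2% of all genes tested higher. Without control replicate 1 that share was 20.4%. CDK1 (0.38) and PRC1 (0.40) turned positive and passed with the neighbour correction, which subtracted medians of -0.41 and -0.71 as fixed values. Of the 26 genes that rose, 11 passed in each of the alternative fits in which they were tested: CDCA3, NEK2, SGO2, BUB1B, CDC20, PTTG1, SPC25, DLGAP5, ANLN, RACGAP1 and NCAPG. Of the 5 that fell, only SMC4 did. Without the _x_at and _s_at probe sets, CDC20, PTTG1, RACGAP1 and the fallen CENPA had none above the filter and were not tested. Except where a correction or smaller gene set is named, the cause of these changes was not tested. Dim genes such as SGO1 and INCENP were the least precise.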
